A study of Mus musculus with 6 samples.

Results

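The genes described here are the transcription factors that drive epithelial-mesenchymal transition (EMT), namely Snai1, Snai2, Twist1, Twist2, Zeb1 and Zeb2, and the genes whose exchange marks it, namely Cdh1, Cdh2, Vim and Fn1. All probe sets whose only gene symbol in the array's annotation was one of these names were taken, which gave 22 of the 45037 probe sets tested and 10 of 18193 named genes. The data were Affymetrix Mouse430_2 arrays of sorted mouse breast cancer cells that the labels call stem cells. The sort was on the surface proteins CD24 and CD29, and 3 arrays held cells with both (CD24+CD29+) and 3 held cells with neither (CD24-CD29-). Both groups came from cells cultured in DMEM with 10% serum, and the labels give no strain, genotype, treatment or cell line name. The design text speaks of 3 independent biologic sample sets, without saying whether they were separate cultures, sorts or animals, so the p-values measure the spread between these arrays, part of which may be technical.

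In EMT an epithelial cell loosens its junctions and takes on a motile, matrix-producing state. Snail and Zeb proteins are zinc-finger repressors, and Twist proteins are basic helix-loop-helix factors; these factors bind E-box words in DNA and are known to silence epithelial genes. Cdh1 (E-cadherin, the adhesion protein of epithelial junctions) is the textbook target, and its loss beside a gain of Cdh2 (N-cadherin) is called the cadherin switch. Vim encodes vimentin, an intermediate filament protein of mesenchymal cells, and Fn1 encodes fibronectin, a matrix glycoprotein. In the mammary gland Snai2 is also a factor of normal basal cells.

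Levels are log2 RMA values as deposited. The lower quartiles of the arrays were 5.20 to 5.41. No gene could be called absent, since the files used hold no detection calls, and RMA shrinks differences between dim signals. Differences are CD24+CD29+ minus CD24-CD29- with the standard error (SE) of a limma fit over all 45037 probe sets, and a difference was called where the Benjamini-Hochberg adjusted p was under 0.05. The share of called probe sets was high, 63.9% of all, 29.2% higher and 34.8% lower in CD24+CD29+ cells. Dim probe sets leaned lower: of those with a mean of 5 to 6, 47.1% were called lower and 11.8% higher, whereas of those with a mean of 8 to 9, 20.6% were called lower and 54.4% higher. The added poly-A control RNAs read brighter on CD24-CD29- arrays, with array medians of 12.61 to 12.67 against 11.40 to 11.46. Rescaling each array to these controls (poly-A scaling) moved the median difference of all probe sets from -0.05 to 1.17. Every direction here is therefore on the deposited scale, that is, set against the rest of the array, and with poly-A scaling all 22 EMT probe sets were called higher. The labelled cell type was checked on epithelial markers: all 14 measured, among them Epcam, Krt8, Krt5, Krt14 and Trp63, lay above the upper quartile of every array.

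On the deposited scale CD24+CD29+ cells had more RNA of Cdh2, Vim, Fn1 and Snai2, by 2.49-fold, 2.22-fold, 1.47-fold and 1.59-fold on the probe set taken to represent each gene. The other probe sets gave 2.77-fold for Cdh2, 1.32-fold and 1.11-fold for Vim, 2.04-fold for Fn1 and 1.92-fold for Snai2. Cdh1 RNA was bright and differed by 0.01 (95% interval -0.11 to 0.14), while with poly-A scaling it was called higher by 1.23. In sorted bulk cells fewer cells of a type and less RNA per cell cannot be told apart. Snai1 was 1.45-fold lower and Twist1 1.16-fold lower, and both read higher with poly-A scaling, by 0.68 and 1.00 on the log2 scale. Twist2 was dim in both groups, and the probe sets of Zeb1 and Zeb2 did not give a common answer.

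Over the 22 probe sets, 10 were called higher, 5 lower and 7 did not pass, beside 29.2% called higher and 34.8% called lower among all probe sets; with poly-A scaling all turned higher. The 8 probe sets of the switch genes gave 7 higher and none lower, with a median difference of 0.79. The 14 probe sets of the transcription factors gave 3 higher and 5 lower, with a median of -0.08, or above 0 under that scaling. The median over all probe sets was -0.05. At least 2-fold differences were called for 4 of the 22, all higher (both Cdh2 probe sets, 1 of Vim and 1 of Fn1), against 2.29% of all probe sets. None was at least 2-fold lower, against 1.15% of all. The groups did not overlap for 14 of the 22, against 68.2% of all probe sets, so non-overlap alone does not set these genes apart. The split followed signal level: of 10 probe sets with a mean of 7 or more, 9 were called higher and none lower, and of 12 with a mean under 7, 1 was called higher and 5 lower on the deposited scale. The part of signal level in this split was not tested.

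**Figure D1:**
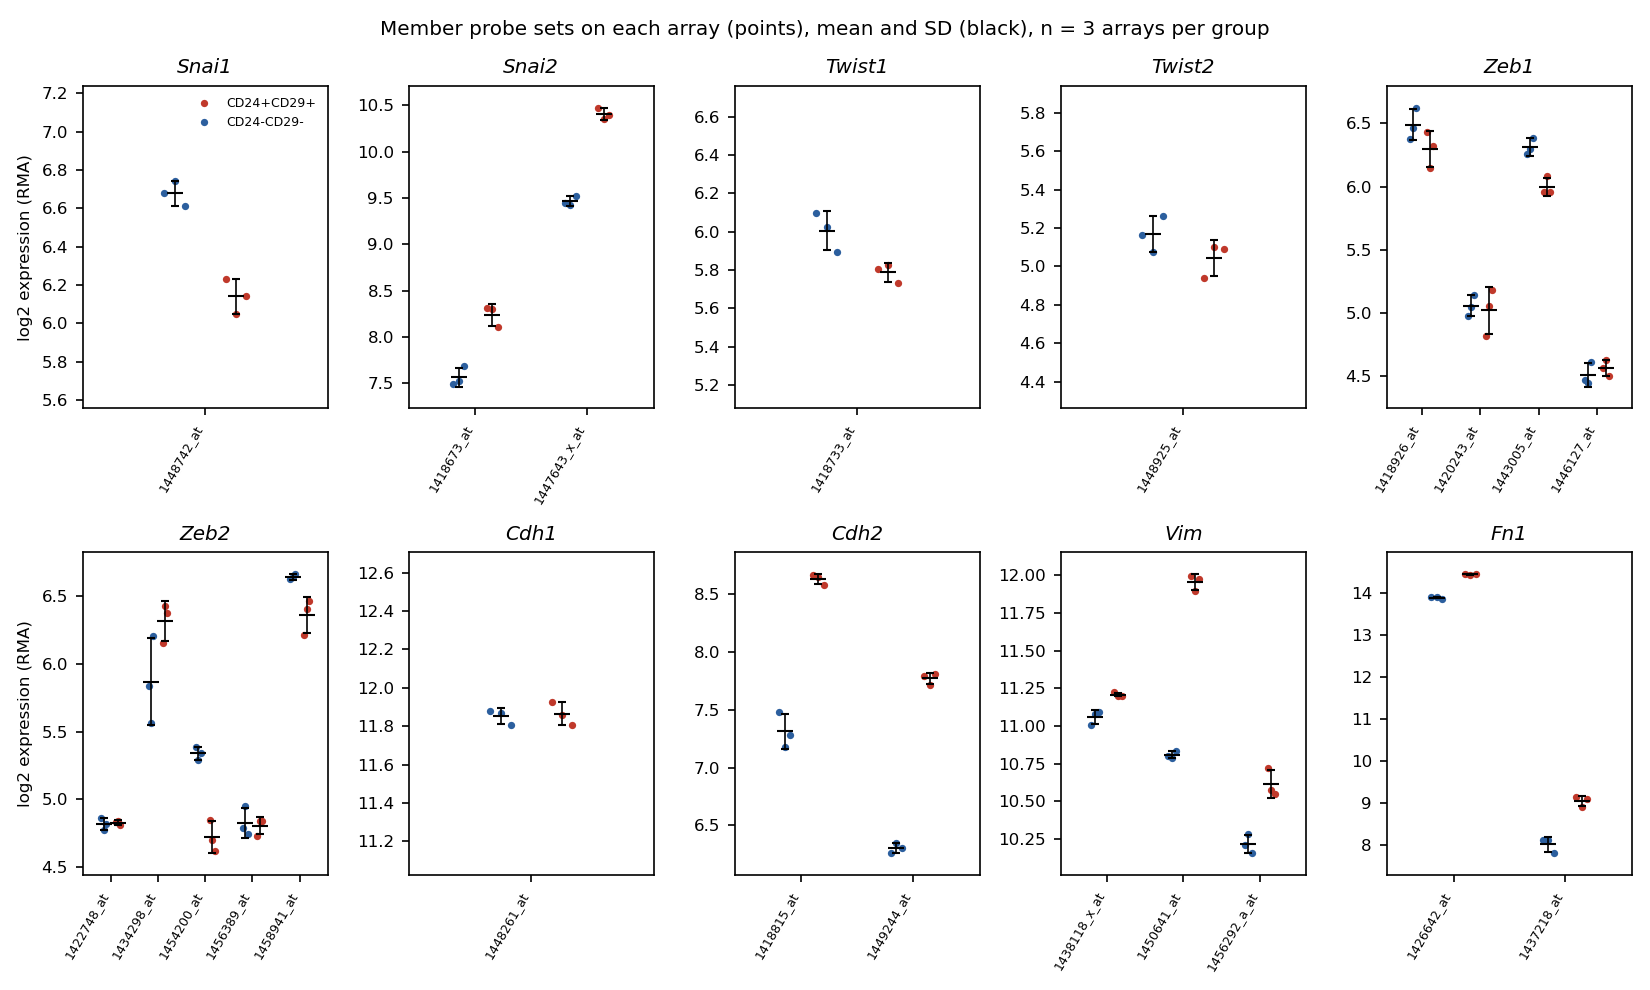
Log2 expression (y axis) of each of the 22 probe sets (x axis, by gene) on the 3 CD24+CD29+ and the 3 CD24-CD29- arrays as points, with the mean and SD in black; y axes differ in range. Cdh2, Vim, Fn1 and Snai2 points of the groups are apart, with CD24+CD29+ higher, Snai1 points are apart the other way on the deposited scale (0.68 higher with poly-A scaling), and Cdh1 points overlap between 11.81 and 11.93.

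Snai1, the Snail factor most often tied to the start of EMT, read 6.23, 6.05 and 6.14 on the CD24+CD29+ arrays and 6.68, 6.74 and 6.61 on the CD24-CD29- arrays (1448742_at). Every CD24+CD29+ array was below every CD24-CD29- array. The difference was -0.54 (SE 0.06, limma adjusted p = 0.00012; 3 arrays per group), or 0.68 with poly-A scaling. Its mean, 6.41, lay near the middle of all probe sets (percentile 52.8), and 9.9% of the 8023 probe sets within 0.5 of that mean were at least as far down. Such shares, here and below, count the probe set itself.

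The word that Snail and Zeb zinc fingers bind, the E2-box CACCTG, was searched on both strands in the 250 bases before the start of each RefSeq transcript of the mouse assembly GRCm38.p6, because Snail genes can be bound by their own family. The table of promoters held windows for 5 of the 10 genes, namely Snai1, Twist1, Twist2, Zeb2 and Vim. Only the Snai1 window held a match, 126 bases before the start (chromosome 2, chr2:167537945-167538194, + strand); it is printed 5' to 3' with the word in capitals.
Snai1: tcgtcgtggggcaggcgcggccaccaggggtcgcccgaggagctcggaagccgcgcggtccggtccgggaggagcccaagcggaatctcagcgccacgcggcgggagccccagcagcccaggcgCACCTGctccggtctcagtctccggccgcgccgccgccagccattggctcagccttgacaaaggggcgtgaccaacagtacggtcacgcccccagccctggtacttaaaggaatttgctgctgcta
The wider word CANNTG, which includes CACCTG and is the general E-box of helix-loop-helix factors, was likewise in no other window of these 5 genes, although 66.2% of all 32817 windows hold it and 17.2% hold CACCTG. A match is a run of letters and not a measured binding site.

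Snai2, also named Slug, a Snail factor of basal mammary cells, went the other way. The probe set 1418673_at read 8.31, 8.30 and 8.10 in CD24+CD29+ cells and 7.49, 7.53 and 7.68 in CD24-CD29- cells, a difference of 0.67 (SE 0.08, limma adjusted p = 9.6e-05). Its second probe set, 1447643_x_at, read 10.47, 10.35 and 10.39 against 9.44, 9.42 and 9.53, a difference of 0.94 (SE 0.06, limma adjusted p = 2.6e-06). The groups did not overlap on either one, and both remained higher under every scaling tried. A name ending in _x_at marks probes that can also bind other transcripts. Among probe sets of like level, 16.6% and 5.28% were at least as far up as these.

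The Snail pair can also be compared within each array, where a shift of the whole array by a constant, as in median centring or poly-A scaling, cancels. Snai2 (1418673_at) minus Snai1 was 2.08, 2.25 and 1.96 on the CD24+CD29+ arrays and 0.81, 0.79 and 1.07 on the CD24-CD29- arrays. The group means differed by 1.21, or by 1.48 with the other Snai2 probe set, and by 1.01 after quantile normalization and 0.98 after cyclic loess. This shows that the pair changed unequally, and not which of them moved.

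Twist1, a factor of mesoderm and neural crest, read 5.81, 5.83 and 5.73 against 6.10, 6.02 and 5.90 (CD24+CD29+ first), without overlap. Its difference of -0.22 (SE 0.06, limma adjusted p = 0.017) was close to the median of probe sets of like level, -0.16, and 43.0% of those were at least as far down. The call was lost under quantile normalization (-0.09), cyclic loess (-0.09) and median centring (-0.16), and the sign turned with poly-A scaling (1.00). Without replicate 3 of CD24+CD29+ or replicate 1 of CD24-CD29- the difference was -0.19 and -0.17 and did not pass. Twist2, its close relative, read 4.94, 5.10 and 5.09 against 5.17, 5.08 and 5.26, below the lower quartile of each array, and the groups overlapped (difference -0.12, SE 0.07, limma adjusted p = 0.15).

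Zeb1, a zinc-finger and homeodomain repressor of Cdh1, had 4 probe sets, all with a mean under 7. The annotation ties only 1418926_at of these to a RefSeq record. The brightest, 1418926_at, read 6.43, 6.15 and 6.32 in CD24+CD29+ cells and 6.38, 6.47 and 6.62 in CD24-CD29- cells, which overlap (difference -0.19, SE 0.09, limma adjusted p = 0.087). Leaving out 1 array moved its difference between -0.12 (without replicate 2 of CD24+CD29+ or replicate 3 of CD24-CD29-) and -0.26 (without replicate 1 of CD24+CD29+), and only the last passed, with a limma adjusted p of 0.041. Only 1443005_at was called: it read 5.96, 6.08 and 5.95 against 6.26, 6.29 and 6.39, a difference of -0.32 (SE 0.06, limma adjusted p = 0.0019), or 0.91 with poly-A scaling. The other two, 1420243_at and 1446127_at, were below the lower quartile on all 6 arrays, with differences of -0.04 and 0.06 that did not pass, although after cyclic loess 1446127_at was called higher by 0.17 (limma adjusted p = 0.035).

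Zeb2, the paralog of Zeb1, had 5 probe sets whose calls went both ways. Only 1422748_at of these is tied to a RefSeq record in the annotation, and it was dim and not called on the deposited scale. The probe set 1458941_at, with the highest mean, read 6.21, 6.41 and 6.46 in CD24+CD29+ cells and 6.62, 6.64 and 6.66 in CD24-CD29- cells (difference -0.28, SE 0.07, limma adjusted p = 0.0073, or 0.94 with poly-A scaling). In contrast 1434298_at read 6.15, 6.43 and 6.37 against 5.84, 5.56 and 6.20 and was called higher by 0.45 (SE 0.15, limma adjusted p = 0.025). Its groups overlapped, and without replicate 2 or 3 of CD24+CD29+ or replicate 1 or 2 of CD24-CD29- the call was lost (0.39, 0.42, 0.43 and 0.30). The dim 1454200_at read 4.85, 4.70 and 4.62 against 5.38, 5.29 and 5.34, a difference of -0.62 (SE 0.07, limma adjusted p = 8e-05), or 0.60 under that scaling, and was below the lower quartile on 5 of the 6 arrays. Of probe sets of like level, 1.45% were at least as far down as 1454200_at and 29.0% as 1458941_at, and 9.42% were at least as far up as 1434298_at. The other two, 1422748_at and 1456389_at, were below that quartile on all 6 arrays and differed by 0.01 and -0.02, neither past the threshold, although after cyclic loess 1422748_at was called higher by 0.14 (limma adjusted p = 0.046). For Zeb2 the direction therefore depends on the probe set.

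**Figure D2:**
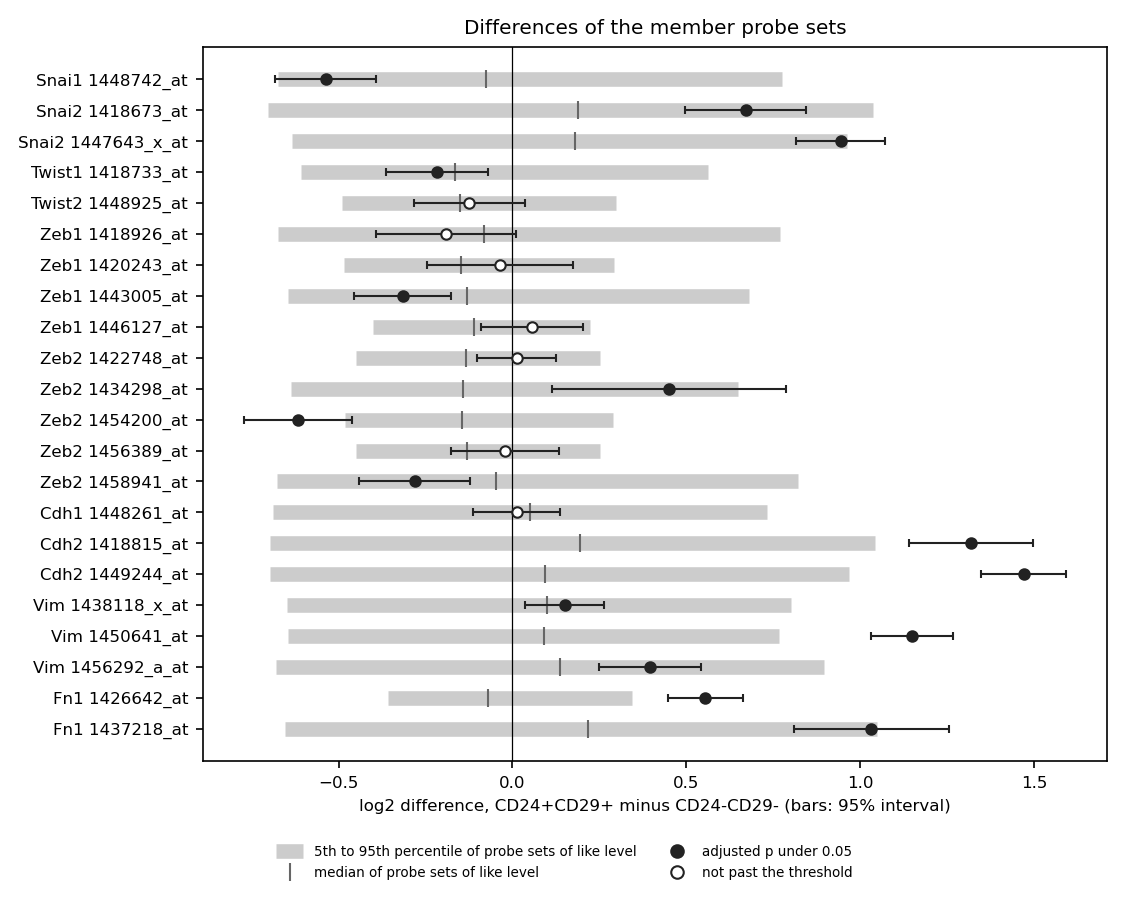
Log2 difference (x axis, CD24+CD29+ minus CD24-CD29-) of each of the 22 probe sets (y axis) with its 95% interval from limma; filled points were called, open points were not, and grey bars with a tick give the 5th to 95th percentile and the median of probe sets within 0.5 of the same mean level. Both Cdh2 probe sets (1.32 and 1.47), the Vim probe set at 1.15 and the bright Fn1 probe set at 0.55 lie to the right of their grey bars, Zeb2 1454200_at at -0.62 lies to the left of its bar, Cdh1 lies at 0.01, and the points left of 0, Snai1 at -0.54 and that Zeb2 probe set among them, all move right of 0 with poly-A scaling.

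Cdh1 was the one switch gene whose difference did not pass. Its one probe set read 11.93, 11.86 and 11.81 in CD24+CD29+ cells and 11.88, 11.87 and 11.81 in CD24-CD29- cells (1448261_at). The groups overlapped, the difference was 0.01 (SE 0.05, limma adjusted p = 0.86), and its 95% interval ran from -0.11 to 0.14; the probe set lay at percentile 97.6 of all means. The sign turned under quantile normalization (-0.03) and cyclic loess (-0.04), still without passing, and with poly-A scaling it was 1.23, near the median of all probe sets, 1.17.

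Cdh2, which holds neural and mesenchymal cells together, had the largest differences of the 10 genes. The probe set 1418815_at read 8.67, 8.65 and 8.58 in CD24+CD29+ cells and 7.48, 7.18 and 7.28 in CD24-CD29- cells, a 2.49-fold difference (1.32 on the log2 scale, SE 0.08, limma adjusted p = 2.4e-06). The second, 1449244_at, read 7.79, 7.71 and 7.81 against 6.26, 6.34 and 6.30, a 2.77-fold difference (1.47 on the log2 scale, SE 0.05, limma adjusted p = 2.4e-07). The groups were far apart on both, and 2.1% and 0.797% of probe sets of like level were at least as far up. The annotation ties both probe sets to the same sequence record, so they read one transcript again and are not separate evidence.

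Read within each array, Cdh2 (1418815_at) minus Cdh1 was -3.26, -3.21 and -3.23 on the CD24+CD29+ arrays and -4.40, -4.69 and -4.53 on the CD24-CD29- arrays. The group means differed by 1.31, or by 1.46 with the other Cdh2 probe set. A constant shift of an array leaves this quantity as it is, and it was 1.17 after quantile normalization and 1.16 after cyclic loess. The balance of the cadherin pair was thus shifted toward Cdh2 in CD24+CD29+ cells, while the Cdh1 signal itself did not differ detectably on the deposited scale.

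Vim was called higher on all of its 3 probe sets, by unequal amounts. On 1450641_at it read 11.99, 11.90 and 11.98 in CD24+CD29+ cells and 10.80, 10.79 and 10.83 in CD24-CD29- cells, a 2.22-fold difference (1.15 on the log2 scale, SE 0.05, limma adjusted p = 6.8e-07). On 1456292_a_at it read 10.72, 10.57 and 10.54 against 10.21, 10.28 and 10.16 (difference 0.40, SE 0.06, limma adjusted p = 0.00072), and on 1438118_x_at 11.22, 11.20 and 11.20 against 11.01, 11.08 and 11.09 (difference 0.15, SE 0.05, limma adjusted p = 0.026). The groups did not overlap on any of them. The last and smallest call was lost under quantile normalization (0.07) and cyclic loess (0.05) and when any array but replicate 3 of CD24-CD29- was left out (0.12 to 0.16). The probe sets with the smaller differences share a sequence record in the annotation, and the one with the largest difference has another. Vim minus Cdh1 within an array was 0.07, 0.04 and 0.17 on CD24+CD29+ arrays and -1.08, -1.08 and -0.97 on CD24-CD29- arrays for 1450641_at, a difference of 1.14, which was 0.38 and 0.14 for the other Vim probe sets.

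Fn1 was called higher on both of its probe sets. The bright one, 1426642_at, read 14.45, 14.43 and 14.44 in CD24+CD29+ cells and 13.90, 13.90 and 13.87 in CD24-CD29- cells, a 1.47-fold difference (0.55 on the log2 scale, SE 0.05, limma adjusted p = 1.7e-05). The highest value of an array was 14.91 to 14.95, and near that limit differences can be compressed. The dimmer 1437218_at read 9.14, 8.90 and 9.10 against 8.11, 8.12 and 7.81, a 2.04-fold difference (1.03 on the log2 scale, SE 0.10, limma adjusted p = 3.2e-05). Of the 119 probe sets as bright as the first, itself included, 1.68% were at least as far up, and of those at the level of the second, 5.33%. The groups did not overlap on either.

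The surroundings of these genes were read from lists of related genes, each gene by its brightest single-symbol probe set that does not end in _x_at where it has another. Over all 18193 genes read this way 33.4% were called higher and 35.5% lower, with a median of -0.04. These shares change with signal level, and the lists were not matched for it. Of all probe sets with a mean of 8 to 9, 54.4% were called higher and 20.6% lower. The mesenchymal state genes were mostly higher, as Vim, Fn1 and Cdh2 were: of 46 measured, 40 (87.0%) were called higher and 3 lower, with a median of 0.85, and 21 were at least 2-fold higher, against 3.01% of all genes. Lox, a collagen crosslinking enzyme, was higher by 5.57-fold, the collagen VI chain gene Col6a1 by 5.15-fold and the collagen I chain gene Col1a2 by 4.07-fold. The 3 called lower, or higher with poly-A scaling, were the integrin chain gene Itgb3 (-0.76), the adhesion molecule gene Ncam1 (-0.57, with 1 of 6 other probe sets called the other way) and the muscle filament gene Des (-0.50).

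Epithelial state genes, the class to which Cdh1 belongs, went both ways. Of 49 measured, 20 (40.8%) were called higher and 23 (46.9%) lower, with a median of -0.02, or 1.20 with poly-A scaling. The tight junction gene Ocln (-1.05), the mucin gene Muc1 (-0.98) and the alveolar factor gene Elf5 (-0.97) were the lowest, at 0.18, 0.25 and 0.25 under that scaling. Lsr (0.91), the splicing regulator gene Esrp2 (0.78) and the junction molecule gene F11r (0.76) were the highest. Epcam, an epithelial adhesion molecule gene, differed by -0.02 and Grhl2, a factor that maintains the epithelial state, by -0.01, neither past the threshold; both were picked after their values were seen.

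Of 30 epithelial state genes that had both a promoter window and a probe set, 20 (66.7%) held CACCTG, against 19.4% of the 26994 genes of the whole promoter table. None of 30 such mesenchymal state genes held it. Over all windows of the mesenchymal list, with or without a probe set, 1 of 38 did. The windows of 4 epithelial genes rich in the word are shown, because they hold it most densely, each a stretch of 120 bases (RefSeq, GRCm38.p6) 5' to 3' on its own strand with matches to CACCTG or its complement CAGGTG in capitals. They are Ap1m2, which encodes a clathrin adaptor subunit of polarised epithelia (chr9:21312337-21312456, - strand, 4 matches), Crb3, a polarity protein gene (chr17:57062080-57062199, + strand, 3 matches), Lsr, a tricellular junction gene (chr7:30973600-30973719, - strand, 3 matches), and Spint2, a protease inhibitor gene (chr7:29281981-29282100, - strand, 3 matches).
Ap1m2: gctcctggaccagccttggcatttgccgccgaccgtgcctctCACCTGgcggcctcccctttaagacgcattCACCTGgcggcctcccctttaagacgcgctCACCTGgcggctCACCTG
Crb3: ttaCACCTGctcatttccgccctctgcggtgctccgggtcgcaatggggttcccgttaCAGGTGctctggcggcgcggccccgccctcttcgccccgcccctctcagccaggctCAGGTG
Lsr: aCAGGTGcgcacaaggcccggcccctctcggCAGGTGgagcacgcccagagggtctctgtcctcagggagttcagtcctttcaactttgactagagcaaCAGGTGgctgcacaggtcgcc
Spint2: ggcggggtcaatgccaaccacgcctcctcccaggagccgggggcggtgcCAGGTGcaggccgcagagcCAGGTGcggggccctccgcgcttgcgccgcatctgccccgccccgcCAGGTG

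Epithelial genes with and without the E2-box were found on both sides. Of the 20 with a CACCTG word in the promoter window, 6 were called higher and 11 lower, and 3 missed the threshold (median -0.15). Of the 10 without one, 4 were higher and 6 lower, with a median of -0.23. These counts are on the deposited scale, and with poly-A scaling 48 of all 49 epithelial genes were called higher. Among the genes whose sequences are printed above, Lsr was higher by 0.91, Spint2 and Crb3 were lower, at -0.28 and -0.23 on the deposited scale, and Ap1m2 differed by 0.06 and did not pass. Elf5, which also had a window with 3 words but is not printed, was at -0.97, or 0.25 with poly-A scaling. Of the 30 mesenchymal genes, none of which held the word, 28 were called higher and 1 lower, with a median of 0.97.

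**Figure D3:**
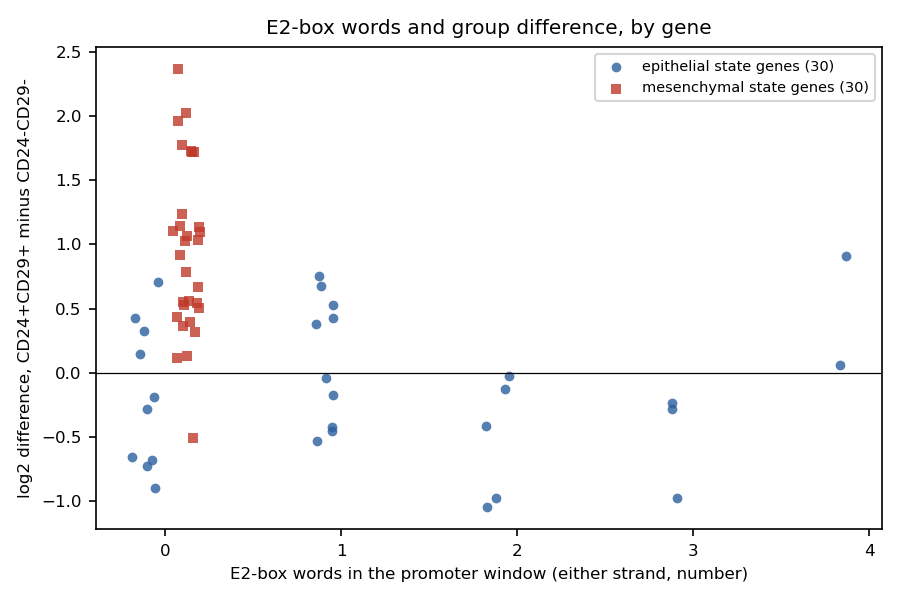
Number of E2-box words in the promoter window (x axis, either strand, the window with the most where a gene has several) against the log2 difference CD24+CD29+ minus CD24-CD29- (y axis) for 30 epithelial (circles) and 30 mesenchymal (squares) state genes. Epithelial genes spread to both sides of 0 with and without the word, on the deposited scale, and every mesenchymal gene sits at 0 words.

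Other transcription regulators tied to EMT were also mixed. Of 37, 21 (56.8%) were called higher and 14 (37.8%) lower, with a median of 0.26. Higher were Hmga2, a chromatin protein gene (1.09), Tcf3, whose product E2A can itself repress Cdh1 (0.97), Tbx3, a T-box factor (0.96, with 2 of 4 other probe sets called the other way), and Tead1, the DNA-binding partner of YAP (0.92). Lower on the deposited scale were Id2 (-1.09) and Id1 (-1.03), inhibitors that hold helix-loop-helix factors such as E2A away from DNA, the Ets factor gene Etv5 (-1.05) and Hand1 (-0.81); with poly-A scaling these stood at 0.13, 0.19, 0.17 and 0.41. Id3 and Id4, of the same family, were called higher, by 0.46 and 0.33, and Snai3, the third Snail gene, by 0.27; they were picked after their values were seen.

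Genes for corepressors of the Snail, Zeb and Twist factors, and for proteins that set their stability, were more often called higher than lower on the deposited scale, by small amounts. Of 37, 22 (59.5%) were called higher and 8 (21.6%) lower, with a median of 0.25 and none at least 2-fold. These shares were near those of all probe sets with a mean of 8 to 9, 54.4% and 20.6%. The part of signal level in the count was not tested. The split was 17 to 11 after quantile normalization, 16 to 11 after cyclic loess and 25 to 5 after median centring. The LIM protein gene Ajuba, a Snail corepressor, was higher by 0.79, the DNA methyltransferase gene Dnmt1 by 0.79 and the corepressor gene Ctbp2, which Zeb proteins recruit, by 0.68. Lower were Fbxw7, a ubiquitin ligase subunit gene (-0.73), the deacetylase gene Sirt1 (-0.65) and the kinase gene Gsk3a (-0.49), which read 0.49, 0.57 and 0.73 with poly-A scaling.

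Of 28 other cadherin and catenin genes, 13 (46.4%) were called higher and 7 lower, with a median of 0.07. Cdh11, a cadherin of mesenchymal cells, was higher by 2.67-fold, the alpha-catenin relative Ctnnal1 by 2.31-fold, the delta-catenin gene Ctnnd2 by 2.28-fold and the membrane-anchored Cdh13 by 1.59-fold, the last with 1 of 3 other probe sets called the other way. Lower were Cdh16 (-0.49), Cdh17 (-0.47), Pkp4 (-0.41) and Cdh10 (-0.32), all higher with poly-A scaling; of these Pkp4 and Cdh10 had 1 other probe set called the opposite way. The count of lower genes was 4 without replicate 1 of CD24+CD29+, 3 after quantile normalization or cyclic loess, beside 11 and 10 higher, and 1 without the dimmest 40% of probe sets. Ctnnb1, which links cadherins to alpha-catenin, was higher by 0.28, and Ctnna1, the alpha-catenin itself, differed by -0.0027 and did not pass; both were picked after their values were seen.

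Genes of fibronectin receptors and matrix assembly were more often called higher than lower on the deposited scale. Of 26, 17 (65.4%) were called higher and 3 lower, with a median of 0.28. Among all genes 33.4% were called higher and 35.5% lower, and among probe sets with a mean of 8 to 9, 54.4% and 20.6%. The part of signal level in the count was not tested. The split was 14 to 4 after quantile normalization or cyclic loess. A mean over each gene's probe sets gave 13 higher and 5 lower. The matrix genes Tnc and Fbln1 were higher by 3.28-fold and 2.62-fold, with 1 of 2 other Fbln1 probe sets called the other way. Itgb1, the CD29 chain by which cells were sorted and so no independent result, was higher by 0.87. Of its 5 other probe sets, 1 was called the other way. The integrin chain genes Itgb3 (-0.76), Itga8 (-0.70) and Itga9 (-0.33) were lower, or read higher with poly-A scaling. Of 12 other intermediate filament genes and linkers related to Vim, 2 were called higher and 3 lower (median -0.05, or 1.17 under that scaling). Plec, which links vimentin to adhesions, was higher by 0.63 and the neuronal Ina by 0.36, whereas Prph (-0.95), Des (-0.50) and Gfap (-0.44), filament genes of nerve, muscle and glia, were lower on the deposited scale. A mean over each gene's probe sets gave 6 lower in place of 3, and without the dimmest 40% of probe sets none was lower.

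**Figure D4:**
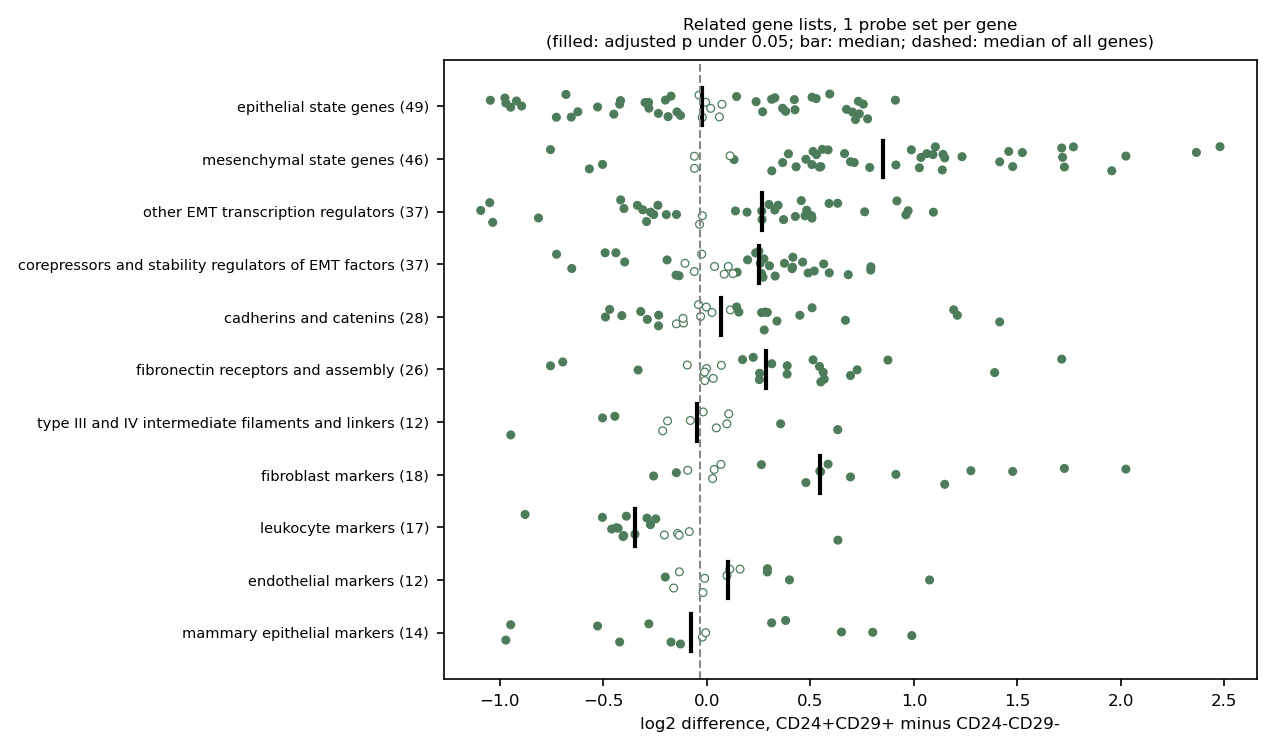
Log2 difference CD24+CD29+ minus CD24-CD29- (x axis) of each gene of 11 lists (y axis, number measured in brackets), filled where called, with the list median as a black bar and the median of all genes, -0.04, dashed. On the deposited scale the mesenchymal list lies mostly to the right (median 0.85), the epithelial list on both sides (median -0.02, or 1.20 with poly-A scaling), and leukocyte markers to the left (median -0.35, or 0.87 under that scaling).

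Markers of other cell types were read on the same arrays, where 33.4% of all genes were called higher and 35.5% lower. The share of endothelial markers called higher, 33.3%, was near that of all genes. Of 18 fibroblast markers 12 were called higher and 2 lower (median 0.55), or 12 and 0 after quantile normalization. The 2 called lower were Fmod (-0.26) and Cd34 (-0.15), or 0.96 and 1.07 with poly-A scaling. All 5 other Fmod probe sets were called the other way. The summed linear signal of the 18 was 12500 to 12900 on CD24+CD29+ arrays against 5960 to 6040 on CD24-CD29- arrays. The mesenchymal list shares 8 genes with the fibroblast markers, all called higher. The 10 fibroblast markers outside it had 4 higher and 2 lower (median 0.05), and the 38 mesenchymal genes outside the fibroblast markers 32 higher and 3 lower (median 0.75). Those 38 still include collagen genes such as Col6a1 and Col5a2, so this split of the lists does not separate cell types. No marker can be at 0 in RMA values; Cd34 alone of the fibroblast markers lay below the lower quartile on every array, while Thy1, Dcn and Gsn lay above the upper quartile. Of 17 leukocyte markers 1 was higher and 12 lower (median -0.35, or 0.87 with poly-A scaling). Of all probe sets with a mean of 5 to 6, 47.1% were called lower and 11.8% higher, and the markers were not matched for level. Ptprc, Itgam and Cd3g were below the lower quartile throughout, while Cd14 was above the upper quartile throughout. The summed signals of the 17 were 6630 to 6700 against 8040 to 8200. A linear sum is weighted toward bright genes, and Cd14 itself differed by -0.27 on the deposited scale. The sums therefore do not weigh the 17 markers alike. Of 12 endothelial markers 4 were higher and 1 lower (median 0.10), or 4 and 0 after quantile normalization. Their sums were 1040 on each CD24+CD29+ array after rounding against 834 to 879. Pecam1, Tek, Tie1 and Vwf were below the lower quartile throughout. Of the 14 epithelial markers 5 were higher and 7 lower (median -0.07, or 1.15 with poly-A scaling), with sums of 71100 to 73700 against 69400 to 70600. Called higher were Krt14 (0.99), Trp63 (0.80), Krt5 (0.65), Krt7 (0.38) and Esrp1 (0.31). Called lower on the deposited scale were Elf5 (-0.97), Krt19 (-0.95), Cldn4 (-0.53), Krt18 (-0.42), Cldn3 (-0.28), Krt8 (-0.17) and Cldn7 (-0.13). The median near 0 thus hides changes in both directions. The part of all these marker lists in the Vim, Fn1 and Cdh2 results was not tested.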

How the data were processed

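Affymetrix Mouse430_2 arrays of 6 sorted samples were used. Per the submitters' processing notes, the authors made the deposited log2 values with RMA and Partek; their versions and settings, and any genome build, are not stated in the labels. Probe sets (45101, of which 64 controls were left out) were named through the platform annotation, which can be old. Differences were fitted with lmFit and eBayes of limma 3.58.1 (R 4.3.3) over 45037 probe sets, with Benjamini-Hochberg adjustment and a threshold of 0.05; the fit was tested on simulated data. The genes and lists were chosen with earlier results of these data known, so list counts are descriptions without a test. In each list of related genes, the cell type marker lists aside, the largest called differences in each direction were named (3 per direction, or 4 for transcription regulators and for cadherins). Titles number the arrays 1 to 3 in both groups, but the design text gives no pairing, so none was assumed. Deviations from the group means of same-numbered arrays correlated at 0.22, -0.05 and 0.04. With 3 arrays per group these values cannot decide whether the arrays were paired. Alternatives were other scalings (quantile, cyclic loess, median centring, poly-A controls from 24 probe sets), another prior, a filter on the dimmest 40%, a replicate block, a 2-fold criterion, gene-level fits and leaving out each array. Array number limits the precision.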

Additional observations from a re-analysis of the deposited data

How the results depend on the processing

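The calls for Snai1, Snai2, Zeb1 1443005_at, Zeb2 1454200_at and 1458941_at, Cdh2, Fn1 and Vim 1450641_at and 1456292_a_at held after quantile normalization, cyclic loess and median centring and when any 1 array was left out. Leaving out 1 array gave 8 to 10 probe sets called higher and 4 to 6 lower. The replicate block, tried although the design text gives no pairing, left 10 higher and 5 lower. With poly-A scaling 22 were higher and 0 lower, and the signs turned for Snai1 (0.68), Twist1 (1.00), Twist2 (1.10), Zeb1 (1.03, 1.19 and 0.91 for 1418926_at, 1420243_at and 1443005_at) and Zeb2 (0.60, 1.20 and 0.94 for 1454200_at, 1456389_at and 1458941_at). Differences that had not passed changed sign after quantile normalization and cyclic loess for Twist2 (0.012 in both), Zeb1 1420243_at (0.096 and 0.098), Zeb2 1456389_at (0.089 and 0.10) and Cdh1 (-0.033 and -0.041), and after median centring for Zeb1 1420243_at (0.019) and Zeb2 1456389_at (0.033). Cyclic loess also added calls, as higher, for Zeb1 1446127_at (0.17) and Zeb2 1422748_at (0.14). Leaving out 1 array moved Zeb1 1420243_at from -0.12 to 0.064, Zeb2 1422748_at from -0.012 to 0.034, Zeb2 1456389_at from -0.064 to 0.041 and Cdh1 from -0.020 to 0.040. Reading 1 probe set per gene gave 4 genes higher and 3 lower, and averaging them per gene 4 and 2. A 2-fold criterion left 4 probe sets higher and 0 lower. The dim filter kept 16 of the 22 probe sets. The cause of these changes was not tested.

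For the lists, poly-A scaling gave 48 epithelial, 46 mesenchymal, 36 EMT regulator, 37 corepressor, 28 cadherin and catenin, 26 fibronectin receptor and 12 filament genes higher, and 0 lower in each. The 2-fold criterion gave 0 higher and 1 lower epithelial, 21 and 0 mesenchymal, 1 and 3 EMT regulator, 0 and 0 corepressor, 3 and 0 cadherin and catenin, 2 and 0 fibronectin receptor and 0 and 0 filament genes. Genes called lower numbered 5 for corepressors after median centring, 3 for cadherins and catenins after quantile normalization or cyclic loess and 1 after the dim filter, 4 to 6 when 1 array was left out, 5 for fibronectin receptors and 6 for filaments with probe sets averaged per gene, and 0 for filaments after the dim filter. The within-array differences were 1.46 for Cdh2 minus Cdh1, 0.14 and 0.38 for Vim minus Cdh1 and 1.48 for Snai2 minus Snai1 with the other probe sets. After quantile normalization and cyclic loess, added for these differences after seeing the data, they were 1.17 and 1.16, 1.12 and 1.11, and 1.01 and 0.98. Signal over background limits the dim probe sets of Twist2, Zeb1 and Zeb2, and 3 arrays per group limit the precision.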
